A study of Mus musculus with 13 samples.

Results

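The proteasome subunit genes were taken as the protein-coding genes of the mouse annotation GENCODE M1 (assembly NCBIM37, also called mm9) whose symbol is Psma, Psmb, Psmc, Psmd, Psme, Psmf or Psmg followed by a number. The rule found 48 of the 22367 protein-coding genes of the nuclear chromosomes, and all of them were described whatever their values. By the names of their subunits, 7 encode alpha and 7 encode constitutive beta subunits of the 20S core, 6 the ATPases of the 19S cap and 14 the proteins that carry its non-ATPase (Psmd) names, 4 activators, 1 an inhibitor, 4 chaperones of core assembly, 3 immune beta subunits and 2 tissue-restricted core subunits.

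The libraries came from ChIP-seq (sequencing of chromatin bound by an antibody) of Hepa 1-6, an established mouse hepatoma cell line. Cells in standard culture gave the profiles of KAP1 and of the histone marks H3K27ac, H3K4me1 and H3K9me3. The polymerases, RNA polymerase II (PolII) and III (PolIII), were mapped 5 days after transduction per the methods, which the labels call transfection with a plasmid. The cells received either a control hairpin per the labels (the empty pLKO vector per the methods) or a pLKO vector encoding a hairpin against KAP1 (Kap1 KD). Both kinds of cells went through puromycin selection. Each of these 8 groups was a single library, so no value below has a replicate error, no comparison was tested, and a difference between the control and Kap1 KD lists cannot be told apart from a difference between these libraries. KAP1 and the histone marks were mapped only in cells in standard culture, so the lists hold no KAP1 or histone mark profile of Kap1 KD cells.

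The proteasome is the main protease for proteins tagged with ubiquitin in the cytosol and nucleus. In its 20S core, rings of alpha subunits enclose rings of beta subunits that carry the cutting sites, and the 19S cap binds the ubiquitin chain, removes it and threads the protein into the core with a ring of ATPases. Nearly every cell makes the constitutive core and cap, liver cells included, while interferon induces the immune beta subunits that replace the cutting ones. KAP1 (gene Trim28) is a corepressor that zinc finger proteins bring to DNA, where it can recruit enzymes that lay down H3K9me3, a mark of silenced chromatin. H3K27ac and H3K4me1 mark active regulatory chromatin.

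The deposited lists held 12470 KAP1 peaks, 57562 H3K27ac, 74014 H3K4me1 and 66242 H3K9me3 regions, 5015 control and 12862 Kap1 KD PolII peaks, and 2772 control and 431 Kap1 KD PolIII peaks. The reads behind each list are unknown. Polymerase peaks carried numbers in genome order. Of these numbers, 31.3% were missing from the control and 22.6% from the Kap1 KD PolII list, and 30.4% and 55.0% from the PolIII lists, for a reason not given in the sources used here. Of 9 hepatocyte and hepatoma markers, H3K27ac lay over the promoters of 5, among them Alb, Afp, Hnf4a and Foxa2, control PolII over 1 (Foxa2) and Kap1 KD PolII over 2. Ttr, Apoa1, Apob and Serpina1a, genes of abundant plasma proteins of the liver, had no region of any list over the promoter. Of the endothelial markers Pecam1 and Cdh5 and the leukocyte markers Ptprc and Cd3e and the stellate cell marker Pdgfrb, none had a region of any list over the promoter, while Cd68 had KAP1, H3K4me1 and PolII in both lists, and Col1a1 had both active marks. Trim28, the gene targeted by the hairpin, had PolII over its promoter in both lists, which says nothing of how far KAP1 fell.

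The first question was which proteins and marks lay over the promoters. A promoter was the window of 250 bp upstream and downstream of the annotated 5′ end, and a region counted when it shared at least 1 bp with that window. PolII of the Kap1 KD list lay over 29 of the 48 proteasome promoters (60.4%), H3K27ac over 21 (43.8%), control PolII over 15 (31.2%), KAP1 over 14 (29.2%) and H3K4me1 over 5 (10.4%). Over all protein-coding genes the same shares were 23.3% for Kap1 KD PolII, 20% for H3K27ac, 13.1% for control PolII, 15.7% for KAP1 and 11.9% for H3K4me1. Some of these shares depended on the rule. H3K27ac was at 18.8% with 100 bp to each side and at 6.25% where 50% of the window had to be covered (all genes 9.23% and 4.46%), control PolII was at 8.33% with the upper part of the list by score (all genes 7.13%), and H3K4me1 stood above all genes with 500 bp to each side (35.4%, beside 24.0%). With the upper part of the list by score, KAP1 was at 12.5% and Kap1 KD PolII at 22.9% (all genes 7.98% and 15.7%). With the Kap1 KD list as long as the control list, Kap1 KD PolII fell to 16.7% (all genes 12.3%). No proteasome promoter had H3K9me3, which lay over 5.24% of all promoters, or PolIII, which lay over 0.344% in the control and 0.134% in the Kap1 KD list. At least 1 of the 8 lists had a region over 35 proteasome promoters (72.9%), beside 41.5% of all genes.

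**Figure D1:**
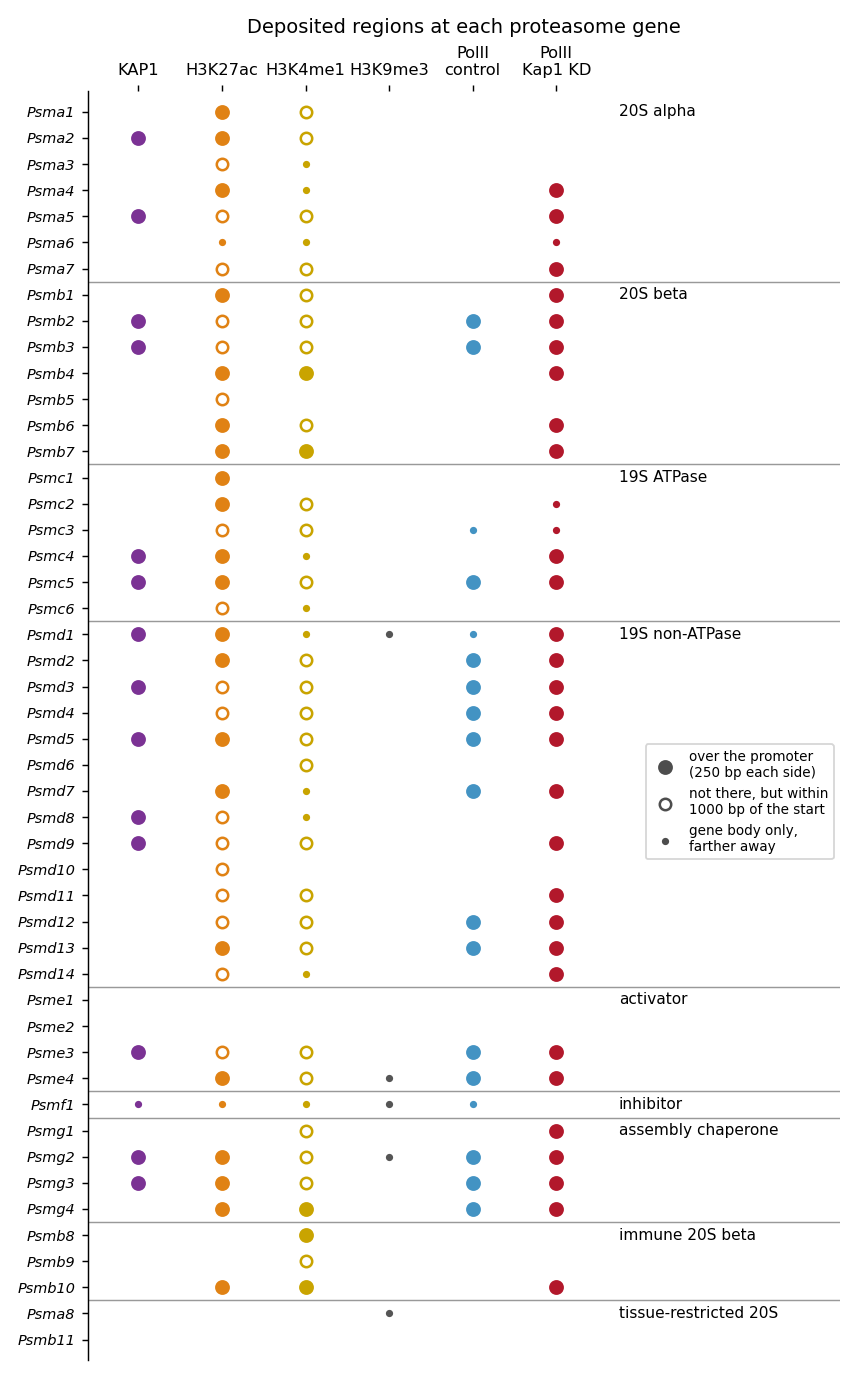
Each row is 1 of the 48 proteasome genes, grouped by role, and each column is 1 deposited list. A large filled dot stands for a region over the promoter, an open dot for the nearest region within 1000 bp of the start but not over the promoter, and a small dot for a region in the gene body only. PolII of the Kap1 KD list fills 29 rows and control PolII 15, while the H3K9me3 column holds only 5 small dots.

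**Figure D2:**
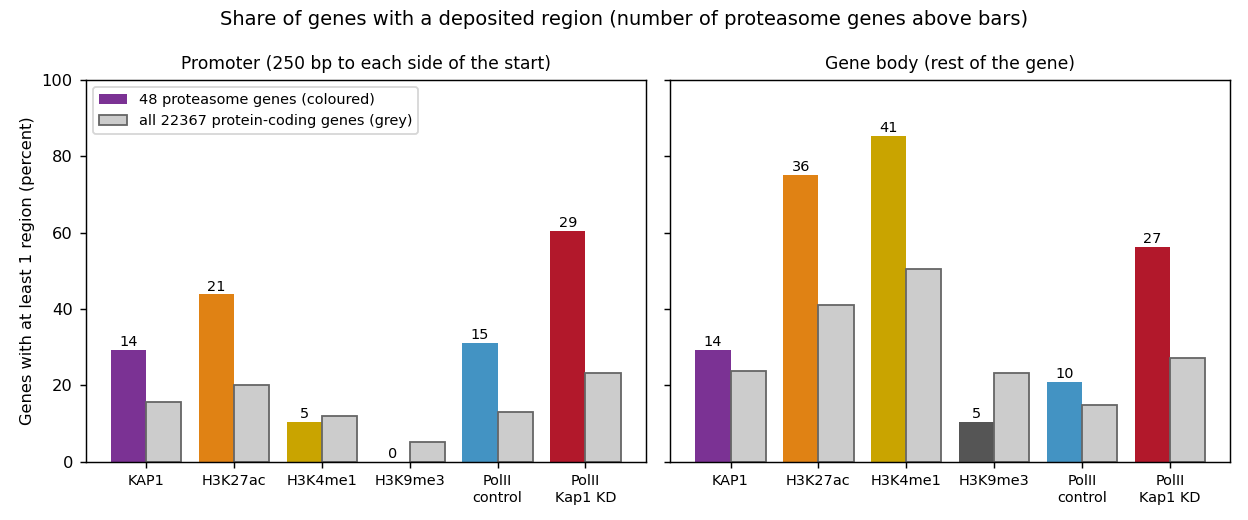
The bars give the percentage of genes with at least 1 region over the promoter (left) or in the rest of the gene (right), coloured for the 48 proteasome genes and grey for all 22367 protein-coding genes. The numbers above the coloured bars count proteasome genes, and with 1 library a list there are no error bars. Kap1 KD PolII has the tallest coloured bar at promoters (29 genes) and H3K4me1 in gene bodies (41 genes).

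The lists combined in 15 ways over these promoters. A group of 4 genes (Psmc5, Psmd5, Psmg2 and Psmg3) had KAP1, H3K27ac and PolII in both conditions, and another 4 (Psmb2, Psmb3, Psmd3 and Psme3) had KAP1 with PolII in both but no H3K27ac within the window. H3K27ac with PolII in both conditions and no KAP1 was found at Psmd2, Psmd7, Psmd13 and Psme4, and with H3K4me1 in addition at Psmg4. Psmd4 and Psmd12 had PolII in both lists and no mark, and Psma7, Psmd11, Psmd14 and Psmg1 had PolII in the Kap1 KD list only, with nothing else. H3K27ac alone lay over Psma1, Psmc1 and Psmc2. No region of any list touched the promoters of Psma3, Psma6, Psmb5, Psmc3, Psmc6, Psmd6, Psmd10, Psme1, Psme2, Psmf1, Psmb9, Psma8 and Psmb11, which include constitutive subunits as well as immune and tissue-restricted ones.

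KAP1 was then examined at the 14 promoters that carried it: Psma2, Psma5, Psmb2, Psmb3, Psmc4, Psmc5, Psmd1, Psmd3, Psmd5, Psmd8, Psmd9, Psme3, Psmg2 and Psmg3. The KAP1 score is that of the deposited list, taken here to be that of MACS, and runs from 50.02 to 3196 over the list, with 152 peaks tied at 3100 and 8 above it. Psmb3, a non-catalytic beta subunit, had a score of 3151, 1 of the 8 above the tied value. Whether these 8 peaks are stronger than the 152 tied ones cannot be told from the scores. The next scores were 317.4 at Psmg2, a chaperone of core assembly, 260 at Psmd3, a cap subunit, 229.4 at Psmg3, another such chaperone, and 114.8 at Psmb2, a beta subunit. The peak at Psmg2 also covered the start of Cep76, 263 bp away. The other 9 scores lay between 57.54 at Psma5 and 107.4 at Psme3, and the median of the 14 was 84.5, beside 103 for the 3522 protein-coding genes with KAP1 over the promoter. The centre of the peak lay downstream of the start at 3 of the 14 (21.4%, beside 45.8% of those genes), namely Psmd8, Psmd9 and Psmg2, and the median distance between centre and start was 142 bp, beside 157 bp.

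**Figure D3:**
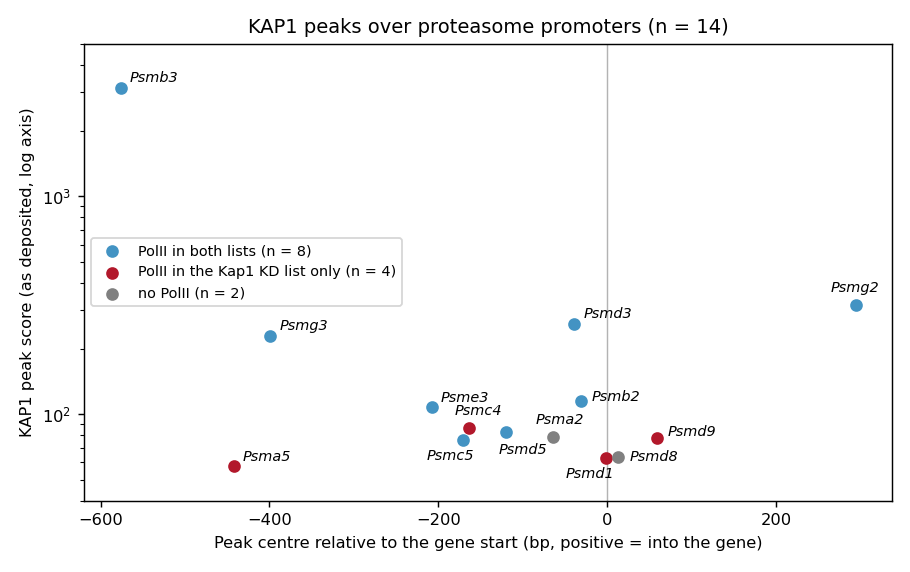
Each point is 1 of the 14 KAP1 peaks over a proteasome promoter, with its centre relative to the gene start in bp on the x axis and its deposited score on a log y axis, coloured by the PolII lists over the same promoter. Psmb3 stands alone at a score of 3151, centred 576 bp upstream of the start (-576), and the other 13 peaks score between 57.54 and 317.4.

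The promoter sequence of 4 of the 5 genes with the highest KAP1 scores, all with control PolII, is shown, together with that of Psmb11, the thymus-specific beta subunit, over which no list had a region. Each run is the 250 bases before the annotated 5′ end, read 5′ to 3′ on the strand of the gene in NCBIM37 (mm9), at chr11:97564463-97564712 (plus strand) for Psmb3, chr11:98543618-98543867 (plus) for Psmd3, chr5:140302798-140303047 (minus) for Psmg3, chr4:126354624-126354873 (plus) for Psmb2 and chr14:55243897-55244146 (plus) for Psmb11. Capitals mark matches, on either strand, to CCAAT (the NF-Y box), CCGGAAG (an ETS site), GGGCGG (the GC box), GCGCNTGCG (a part of the nuclear respiratory factor 1 site), AAGATGGC (YY1), TGACNNNGC (the antioxidant response element core), GAANNTTC (part of a heat shock element) and TATAAA (the TATA box).
Psmb3: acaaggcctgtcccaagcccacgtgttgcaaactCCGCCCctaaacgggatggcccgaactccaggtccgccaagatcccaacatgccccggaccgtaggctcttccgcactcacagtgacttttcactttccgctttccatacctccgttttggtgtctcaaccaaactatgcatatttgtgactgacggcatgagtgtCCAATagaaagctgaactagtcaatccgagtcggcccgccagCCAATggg
Psmd3: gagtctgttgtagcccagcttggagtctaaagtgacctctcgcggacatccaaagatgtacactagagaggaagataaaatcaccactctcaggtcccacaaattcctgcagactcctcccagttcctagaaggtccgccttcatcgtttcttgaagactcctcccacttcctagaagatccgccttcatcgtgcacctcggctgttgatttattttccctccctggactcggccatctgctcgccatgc
Psmg3: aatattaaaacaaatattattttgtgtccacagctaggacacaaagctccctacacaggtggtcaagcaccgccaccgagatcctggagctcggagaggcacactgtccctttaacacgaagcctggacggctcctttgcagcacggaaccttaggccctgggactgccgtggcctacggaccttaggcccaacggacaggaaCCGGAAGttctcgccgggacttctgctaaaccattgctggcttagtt
Psmb2: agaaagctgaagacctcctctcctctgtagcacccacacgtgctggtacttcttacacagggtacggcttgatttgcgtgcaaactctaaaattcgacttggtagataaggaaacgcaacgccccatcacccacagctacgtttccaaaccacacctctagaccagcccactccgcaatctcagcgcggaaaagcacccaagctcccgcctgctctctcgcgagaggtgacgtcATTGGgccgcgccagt
Psmb11: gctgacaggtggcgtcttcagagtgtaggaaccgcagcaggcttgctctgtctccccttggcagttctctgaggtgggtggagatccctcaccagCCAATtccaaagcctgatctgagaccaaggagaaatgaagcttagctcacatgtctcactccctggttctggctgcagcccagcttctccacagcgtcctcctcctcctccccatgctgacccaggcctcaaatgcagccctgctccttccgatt
Psmb3 held CCAAT at 50 and 8 bases before the start (positions -50 and -8) and a GC box on the other strand at -216, Psmg3 the ETS site at -47, Psmb2 the CCAAT box on the other strand at -16 and Psmb11 CCAAT at -155. Psmd3 held none of the 8 within this stretch. A match describes the letters and not a bound site.

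Over the 300 bases from 250 before to 50 after the start, the ETS letters were found at 15 of the 48 proteasome genes (31.2%, beside 10.8% of 22362 protein-coding genes with a sequence). They stood at Psmc1, Psmc2, Psmc3, Psmc6, Psmd2, Psmd4, Psmd6, Psmd7, Psmd11, Psmd12, Psme3, Psme4, Psmg1, Psmg3 and Psma8, which are 10 of the 20 cap genes, 2 of the 4 activators, 2 of the 4 chaperones of core assembly, 1 of the 2 tissue-restricted genes and none of the 14 constitutive core genes. The GC box was at 29 (60.4%, beside 43.4%), the nuclear respiratory factor 1 part at 7 (14.6%, beside 8.15%) and the YY1 letters at 4 (8.33%, beside 3.30%). For the CCAAT box the shares were 39.6% and 37.9%, for the antioxidant core 14.6% and 12.5%, for the TATA box 10.4% and 13.4% and for the heat shock part 4.17% and 7.57%. A CpG-rich stretch (at least 50% G and C and an observed over expected CpG ratio of at least 0.6) was present at 32 proteasome promoters (66.7%, beside 42.0%). Of the 14 promoters with KAP1, 2 had the ETS letters (Psme3 and Psmg3), beside 13 of the 34 without KAP1. The same split was not made over all genes, so it has no baseline here. These counts are a description of letters and were not tested.

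KAP1 and control PolII shared 8 proteasome promoters (16.7%, beside 6.98% of all genes). This share was 8.33% where the centre of each region had to lie within the window (all genes 2.79%). It was 4.17% with the upper part of each list by score (all genes 2.63%). Control PolII lay over 8 of the 14 promoters with KAP1 (57.1%, beside 44.3% of all genes with KAP1) and over 7 of the 34 without it (20.6%, beside 7.32%). Kap1 KD PolII lay over 12 of the 14 (85.7%, beside 65.1%) and over 17 of the 34 (50.0%, beside 15.5%). The 2 promoters with KAP1 and no PolII in either condition belonged to Psma2, an alpha subunit with a KAP1 score of 78.40, and Psmd8, a cap subunit with a score of 63.54. H3K27ac lay over 7 of the 14 with KAP1 (50.0%, beside 48.9%) and over 14 of the 34 without it (41.2%, beside 14.6%).

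The active marks lay beside the starts rather than over them. Of the 48 genes, 4.17% were covered by H3K27ac at 50 bp before the start, and the share rose to 52.1% at 850 bp into the gene, whereas over all protein-coding genes it was 4.32% at 50 bp before the start and at most 18.1%, at 450 bp upstream. H3K4me1 covered at most 60.4% of the proteasome genes, at 1550 bp into the gene, beside at most 24.9% of all genes, at 1450 bp. Within 1000 bp of the start, H3K27ac was found at 38 proteasome genes (79.2%, beside 35.2%) and H3K4me1 at 31 (64.6%, beside 37.1%). Both sides of the start carried H3K27ac within that distance at 24 genes (50.0%, beside 20.3% of all genes), the downstream side alone at 10 (20.8%, beside 7.31%) and the upstream side alone at 4 (8.33%, beside 7.58%). KAP1 and PolII had no such dip. KAP1 covered 29.2% of the genes at 50 bp to either side, control PolII 29.2% likewise, and Kap1 KD PolII 54.2% at 50 bp into the gene. H3K9me3 covered none of the 48 at the positions sampled (1 every 100 bp within 5000 bp of the start), where it covered at most 3.92% of all genes, and the nearest H3K9me3 region, at Psma1, lay 4304 bp from the start between those positions.

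**Figure D4:**
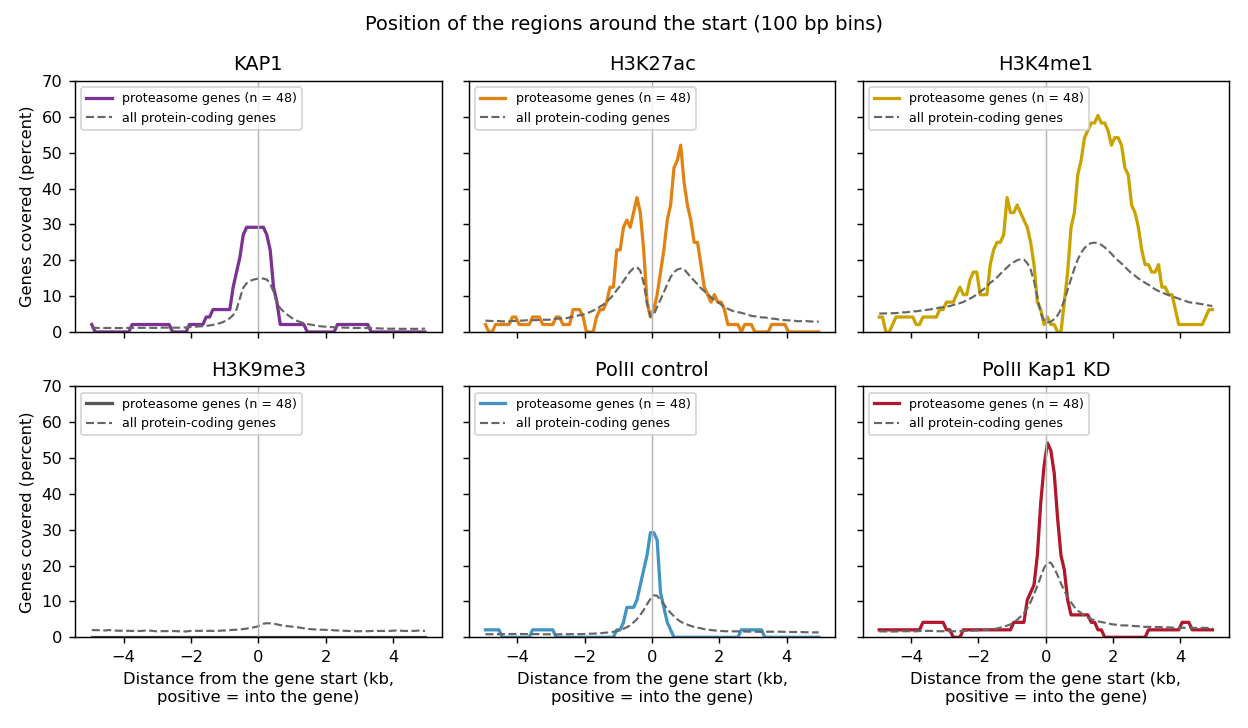
Each panel gives, for 1 list, the percentage of genes covered at the centre of each 100 bp bin, by distance from the gene start in kb (positive values lie inside the gene). The solid line stands for the 48 proteasome genes and the dashed line for all protein-coding genes. H3K27ac and H3K4me1 dip at the start and peak inside the gene at 52.1% and 60.4%, KAP1 and PolII peak at the start, and the H3K9me3 line of the proteasome genes stays at 0.

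PolII was compared between the control and Kap1 KD lists. Peaks of both lists lay over 15 proteasome promoters, and 14 had a peak in the Kap1 KD list only (29.2%, beside 10.9% of all genes). None had a peak in the control list only, which was the case for 0.733% of all genes. Of the 15 promoters with a control peak all kept a peak under Kap1 KD, beside 94.4% of such promoters over all genes, and of the 33 without a control peak 14 had one under Kap1 KD (42.4%, beside 12.6%). The Kap1 KD list was the longer of the 2 by 12862 peaks to 5015. When it was reduced to its 5015 highest scores, its peaks lay over 8 proteasome promoters (16.7%, beside 12.3% of all genes), and the promoters with a Kap1 KD peak only fell to 2 (4.17%, beside 3.08%), those of Psmd14 and Psmb10. Of the 15 promoters with a control peak, only those of Psmb3, Psmc5, Psmd5, Psme3, Psme4 and Psmg3 kept a peak in the reduced list. The others then had a control peak only, so the direction of the difference depended on the length of the list.

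The PolII score has a stated meaning in none of the sources used here, is a whole number, and rose with the width of the peak (Spearman rho of 0.958 over the control and 0.971 over the Kap1 KD peaks). It is therefore used only to place a peak within its own list. Where the scores of both lists are given for a gene, each describes its own list, and their difference is not read as a change. In the control list the 15 peaks over proteasome promoters had a median score of 33.0 (lowest 18 at Psmg4, highest 49 at Psme3). Only 4 of them lay above 40, the median of that list (26.7%, beside 52.9% of all promoters with control PolII). In the Kap1 KD list the 29 peaks had a median score of 44.0 (lowest 20 at Psmd2, highest 144 at Psmc5), and 11 lay above the median of that list, 48 (37.9%, beside 65.8%). Psmd2, the ubiquitin-binding scaffold of the cap, thus stood low in both lists, with scores of 22 and 20.

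The width of a peak is in bp in both lists. At the 15 promoters with both peaks the median width was 623 bp in the control and 789 bp in the Kap1 KD list, beside 968 and 1362 bp for the 2777 such promoters over all genes. The Kap1 KD peak was the wider at 10 of the 15 (66.7%, beside 77.9%). At Psmc5, a cap ATPase, the widths were 924 and 2854 bp, while at Psmb3 they were 1296 and 894 bp. Because width rose with score in both lists, a comparison of widths between the lists has the same limits as one of scores. How far the depth of the libraries set these widths was not tested.

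**Figure D5:**
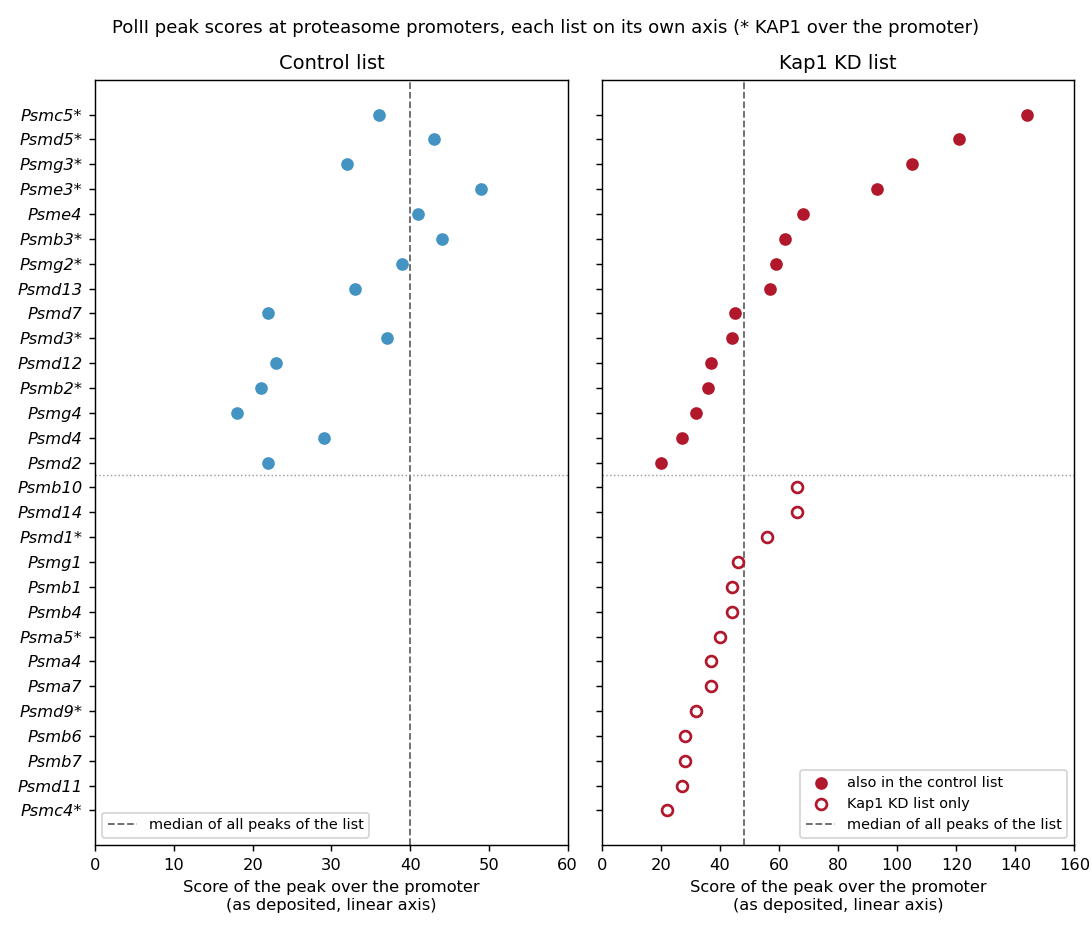
Each row is 1 of the 29 proteasome promoters with PolII, with the deposited score of its control peak (left, blue) and Kap1 KD peak (right, red), each list on its own linear axis with a dashed line at the median of all its peaks. Open circles stand for the 14 promoters without a control peak and an asterisk for KAP1 over the promoter. Of the control peaks 4 lie to the right of the line at 40, and of the Kap1 KD peaks 11 lie to the right of the line at 48.

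The 14 promoters with PolII in the Kap1 KD list only were those of Psma4, Psma5, Psma7, Psmb1, Psmb4, Psmb6, Psmb7, Psmc4, Psmd1, Psmd9, Psmd11, Psmd14, Psmg1 and Psmb10. Their Kap1 KD scores had a median of 38.5 and ran from 22 at Psmc4 to 66 at Psmd14 and Psmb10, beside a median of 45.0 for the 2445 such promoters over all genes. KAP1 lay over 4 of the 14 (Psma5, Psmc4, Psmd1 and Psmd9), which is 28.6%, beside 32.6% of the 2445, and H3K27ac over 8 (57.1%, beside 47.6%). Between the control peaks that flank the promoter, numbers were missing at Psmb1 (1), Psmd9 (2) and Psmd1 (44), and at none of the other 11. Without the 5 members that had such a gap in the control list, the share was 25.6% (11 of 43), beside 11.3% of all genes after the same exclusion.

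Among the alpha subunits, none of the 7 genes had control PolII over the promoter, beside 13.1% of all genes. With 7 genes this count is not read as a trait of the class. Psma4, Psma5 and Psma7 had a Kap1 KD peak, with scores of 37, 40 and 37. KAP1 lay over Psma2 (78.40) and Psma5 (57.54), and H3K27ac over Psma1, Psma2 and Psma4. Psma3 had its nearest H3K27ac region 590 bp from the start. At Psma6 the annotated 5′ end was 13642 bp from the nearest H3K27ac region, but a Kap1 KD PolII peak (score 44) had its centre 44 bp from the start of another annotated transcript, 14508 bp into the gene. All 7 alpha genes had both active marks in the gene body, where H3K27ac was found at 41.0% and H3K4me1 at 50.5% of all genes.

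The constitutive beta subunits include the cutting ones, Psmb5, Psmb6 and Psmb7. Control PolII was found over Psmb2 (21) and Psmb3 (44), and Kap1 KD PolII over 6 of the 7 (beside 23.3% of all genes), with scores of 44 at Psmb1, 36 at Psmb2, 62 at Psmb3, 44 at Psmb4, 28 at Psmb6 and 28 at Psmb7. The exception was Psmb5, which encodes the chymotrypsin-like cutting subunit and had no region of any list over the promoter. Its nearest H3K27ac region lay 305 bp from the start and its nearest Kap1 KD PolII peak 14413 bp away. H3K27ac lay over Psmb1, Psmb4, Psmb6 and Psmb7, and H3K4me1 over Psmb4 and Psmb7. The Kap1 KD PolII peak of Psmb7 reached 54 bp of the window. Psmb3 had 1 PolIII peak of each list within 1000 bp, with edges 707 bp (control) and 777 bp (Kap1 KD) from the start.

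The ATPases of the cap, Psmc1 to Psmc6, unfold the protein to be cut. Control PolII lay over Psmc5 alone (36), and Kap1 KD PolII over Psmc4 (22) and Psmc5 (144). The Kap1 KD peak of Psmc5 was 2854 bp wide and its window also holds the start of Ftsj3, 75 bp away on the other strand, so that the PolII of these genes cannot be told apart. KAP1 lay over the same pair, Psmc4 (86.58) and Psmc5 (76.26). H3K27ac lay over Psmc1, Psmc2, Psmc4 and Psmc5, although at Psmc1 it reached only 1 bp of the window. Psmc3 and Psmc6 had no region over the promoter, and H3K27ac lay 576 and 569 bp from their starts.

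The other cap genes, Psmd1 to Psmd14, encode scaffolds, ubiquitin receptors and the deubiquitinase Psmd14, and 3 of them (Psmd5, Psmd9 and Psmd10) encode chaperones of cap assembly. Control PolII lay over 7 of the 14 (beside 13.1% of all genes), with scores of 22 at Psmd2, 37 at Psmd3, 29 at Psmd4, 43 at Psmd5, 22 at Psmd7, 23 at Psmd12 and 33 at Psmd13. In the Kap1 KD list the same genes had scores of 20, 44, 27, 121, 45, 37 and 57. Another 4 had a Kap1 KD peak only, with scores of 56 at Psmd1, 32 at Psmd9, 27 at Psmd11 and 66 at Psmd14. KAP1 lay over Psmd1 (62.76), Psmd3 (260), Psmd5 (82.36), Psmd8 (63.54) and Psmd9 (77.79), and H3K27ac over Psmd1, Psmd2, Psmd5, Psmd7 and Psmd13. Psmd6 and Psmd10 had none of the lists over the promoter. At Psmd10 the nearest H3K27ac region lay 483 bp from the start, whereas at Psmd6 it lay 106884 bp away, and H3K4me1 838 bp away.

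The activators Psme1 and Psme2, which interferon induces and which together form a ring that opens the core, had no region over the promoter, in the gene body or within 1000 bp. Their nearest H3K27ac regions lay 18346 and 31336 bp from the start. The other activators differed. Psme3, which forms the nuclear activator ring, had KAP1 (107.4) and PolII in both lists (49 and 93), and Psme4, an activator that acts as a single large protein, had H3K27ac and PolII in both lists (41 and 68). Psmf1, which encodes the inhibitor, had no region over the promoter of its annotated 5′ end. Near other annotated transcript starts inside the gene lay a KAP1 peak (185.6, centred 2822 bp from the 5′ end) and a control PolII peak (26, centred 2974 bp from it), 55 and 80 bp from the nearest of those starts. The nearest Kap1 KD PolII peak was 177808 bp from the 5′ end, with no number missing between the flanking peaks. When the start of any transcript was allowed, Psmf1 was the only proteasome gene to gain control PolII.

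The chaperones Psmg1 to Psmg4 guide the assembly of the core, and all 4 had PolII over the promoter in the Kap1 KD list, beside 23.3% of all genes. The scores in the control and Kap1 KD lists were 39 and 59 at Psmg2, 32 and 105 at Psmg3 and 18 and 32 at Psmg4, while Psmg1 had a Kap1 KD score of 46 and no control peak. KAP1 lay over Psmg2 (317.4) and Psmg3 (229.4), and H3K27ac over Psmg2, Psmg3 and Psmg4. Psmg1 had its nearest H3K27ac region 137388 bp from the start, although PolII covered its promoter window in full.

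The immune subunits Psmb8, Psmb9 and Psmb10 replace the constitutive cutting subunits after interferon stimulation. None had KAP1 or control PolII over the promoter, beside 15.7% and 13.1% of all genes, and with so few genes this is not read as a trait of the class. Psmb8 had H3K4me1 over the promoter and no H3K27ac within 73429 bp, and Psmb9 had H3K4me1 516 bp from its start, which lies 199 bp from that of Tap1 on the other strand. Psmb10 had both active marks and a Kap1 KD PolII peak with a score of 66, which was centred 972 bp into the gene and reached 28 bp of the window. The tissue-restricted subunits Psma8 (testis) and Psmb11 (thymus) had no region over the promoter. The nearest H3K27ac regions lay 22662 bp from the start of Psma8 and 6716 bp from that of Psmb11, and the nearest control PolII peaks 23109 and 21841 bp away. Without these 5 genes, KAP1 lay over 14 (32.6%), H3K27ac over 20 (46.5%), control PolII over 15 (34.9%) and Kap1 KD PolII over 28 (65.1%) of 43 promoters, beside 15.7%, 20%, 13.1% and 23.3% of all genes.

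In the gene body, the rest of the gene beyond the promoter window, H3K4me1 was found at 41 proteasome genes (85.4%, beside 50.5% of all genes) and H3K27ac at 36 (75.0%, beside 41.0%). Kap1 KD PolII was found at 27 (56.2%, beside 27.2%), control PolII at 10 (20.8%, beside 14.9%), KAP1 at 14 (29.2%, beside 23.7%), H3K9me3 at 5 (10.4%, beside 23.2%) and control PolIII at Psmf1 alone (2.08%, beside 3.51%). Where 10% of the gene body had to be covered, the shares of KAP1 (2.08%, beside 4.49%), H3K27ac (8.33%, beside 10.3%) and control PolII (2.08%, beside 4.23%) lay below those of all genes, as did control PolII with the upper part of the list by score (6.25%, beside 9.30%). The median length of the proteasome genes was 12.1 kb and that of all genes 15.4 kb. Many of these regions were those of the promoter that reached past the window. Counting only regions that did not touch it, KAP1 remained at 2 genes, Psmd1 and Psmf1 (4.17%, beside 11.2%), control PolII at 5 (10.4%, beside 6.47%), Kap1 KD PolII at 11 (22.9%, beside 13.4%), H3K27ac at 30 (62.5%, beside 37.1%) and H3K4me1 at 40 (83.3%, beside 49.3%).

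At Psmd1, a scaffold of the cap, 2 KAP1 peaks (77.74 and 67.14) lay more than 88 kb into the gene, and the second overlapped a PolII peak of each list (31 in the control, 40 under Kap1 KD). The second KAP1 peak and the control PolII peak there also overlapped the gene Armc9. PolII peaks spanned the 3′ end of Psmc5 in both lists (89 and 122) and those of Psmb3 (96), Psmb7 (110) and Psmd13 (59) in the Kap1 KD list only. Each of the peaks at a 3′ end also overlapped a neighbouring gene (Smarcd2, Pip4k2b, Nek6 and Cox8b), so that there, as at Armc9, which of the genes a peak belonged to cannot be told apart. Smaller PolII peaks inside a gene were those of Psmc3 (17 in the control, and at another position 24 under Kap1 KD, where it also overlapped Slc39a13) and, in the Kap1 KD list only, of Psma7 (24), Psmc2 (26), Psmd9 (41) and Psmd12 (23). Psmd13 had 1 of each list (41 and 65) over the pseudogene Gm15542, and the PolIII peak of Psmf1 had a score of 24. The 5 genes with H3K9me3 in the body were Psmd1, Psme4, Psmf1, Psmg2 and Psma8.

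Another protein-coding gene started within 1000 bp of 10 proteasome genes (20.8%, beside 11.8% of all genes), among them Dnajc2, 32 bp from Psmc2, and Ss18l1, 76 bp from Psma7. Others were AY074887, 164 bp from Psma4, Mrpl32, 217 bp from Psma2, and Cep76, 263 bp from Psmg2. The KAP1 peaks of Psma2 and Psmg2 and the Kap1 KD PolII promoter peaks of Psma4 and Psma7 covered both starts. Which gene these peaks belong to cannot be told apart. Over the 38 proteasome genes without another gene start within 1000 bp, KAP1 lay over 28.9%, H3K27ac over 39.5%, control PolII over 31.6% and Kap1 KD PolII over 63.2% of the promoters, beside 13.4%, 17.3%, 11.4% and 20% of all genes without such a neighbour.

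The other genes of the ubiquitin and proteasome pathway were taken from a list of 26 found in the annotation. KAP1 lay over 14 of their promoters (53.8%, beside 15.7% of all genes), H3K27ac over 15 (57.7%, beside 20%), H3K4me1 over 3 (11.5%, beside 11.9%), H3K9me3 over 1 (3.85%, beside 5.24%), control PolII over 16 (61.5%, beside 13.1%) and Kap1 KD PolII over 21 (80.8%, beside 23.3%). Pomp, which helps to mature the core, and Nfe2l1, a transcription factor known to raise proteasome genes, had KAP1, H3K27ac and PolII in both lists. The same held for the polyubiquitin gene Ubb, and KAP1 with PolII in both lists and no H3K27ac for Adrm1 and Uchl5, a ubiquitin receptor of the cap and the deubiquitinase it binds. Usp14, another deubiquitinase of the cap, had KAP1 and H3K9me3 and no PolII. Uba1, the main ubiquitin-activating enzyme, and Ngly1, which acts on Nfe2l1, had no region of any list over the promoter. Shfm1, Ubqln2, Rps27a, Nploc4 and Ddi2 had PolII in the Kap1 KD list only.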

How the data were processed

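Hepa 1-6 cells were profiled by ChIP-seq in 13 samples, of which 5 sequenced inputs have no list and were not analysed here. Reads were mapped by the authors with Bowtie (Bowtie1 for the peak lists) to mm9 (also in the submitters' processing notes), KAP1 and PolII peaks were called with MACS against total input, and histone mark regions with ChIP-Part. The caller for PolIII is not given in the sources used here, nor are release numbers of the tools and thresholds. The deposited lists hold positions and, for KAP1, PolII and PolIII, a score in the unit the authors used, with no read counts, so depth is unknown. Replicates were not pooled, as each list came from 1 library.

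Promoters (250 bp upstream and downstream of the 5′ end), gene bodies, scores, distances and motifs were computed in Python 3.11.15 (numpy 2.4.6, pandas 2.3.3, scipy 1.17.1, matplotlib 3.10.9) from GENCODE M1 on NCBIM37. No KAP1, mark or polymerase region passed the end of a chromosome of that build. Psmb9 and Psmd14 each have 2 overlapping records, of which 1 was kept. Psmc3ip and the pseudogene Psme2b-ps fall outside the rule. The overlap code was checked on simulated regions. Groups came from the antibody and cell labels. Every member is named, and the calls and scores over the promoter and the KAP1 and polymerase peaks in the gene body are given for the 5 highest KAP1 scores, the members whose PolII call differs between conditions, those with no region over the promoter, and the immune and tissue-restricted subunits, while histone mark regions in gene bodies are given by counts. Sequences are those of the 4 highest KAP1 scores with control PolII, leaving out Psmg2, whose sequence was counted for motifs but is not printed here, and 1 immune or tissue-restricted member with no region over the promoter. The members, gene lists and motifs were chosen with earlier results of these data known. No test was made, and counts are set beside those over all protein-coding genes. Some genes of the marker and pathway lists are not reported here by name.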

Additional observations from a re-analysis of the deposited data

How the results depend on the processing

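Each share was recomputed under 110 alternatives over 13 results, and 69 stayed within the 95% Wilson interval of the value reported, which is used here only as a yardstick. With the promoter at 100, 500 and 1000 bp to each side, H3K27ac over the promoter was at 18.8%, 66.7% and 79.2% of the proteasome genes, and H3K4me1 at 35.4% and 64.6% with the wider 2 windows (all genes 9.23%, 29.3% and 35.2%, and 24.0% and 37.1%). H3K4me1 was at 29.2% when the start of any transcript was allowed (all genes 18.3%). Where 50% of the window had to be covered, H3K27ac was at 6.25% and H3K4me1 at 4.17% (all genes 4.46% and 2.75%), and where the centre of the region had to lie within the window, H3K27ac was at 14.6%, H3K4me1 at 2.08%, Kap1 KD PolII at 43.8% and KAP1 together with control PolII at 8.33% (all genes 5.28%, 1.78%, 12.0% and 2.79%). With only the upper part of each list (scores, or widths where no score is given, at or above the median), promoter shares were 12.5% for KAP1, 16.7% for H3K27ac, 4.17% for H3K4me1, 8.33% for control PolII, 22.9% for Kap1 KD PolII, 4.17% for KAP1 with control PolII and 14.6% for Kap1 KD PolII alone. These stood beside 7.98%, 11.4%, 7.60%, 7.13%, 15.7%, 2.63% and 8.89% of all genes, so the distance to all genes narrowed except for H3K4me1, which stood further below them than in the values reported. H3K4me1 over the promoter, below all genes in the value reported, stood above them under the other promoter settings except with Psmc3ip counted as a member. With the Kap1 KD list as long as the control list, Kap1 KD PolII was at 16.7% and Kap1 KD PolII alone at 4.17% (all genes 12.3% and 3.08%).

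In the gene body, control PolII was at 37.5% with a 100 bp promoter and 10.4% with a 1000 bp promoter. These stood beside 16.5% and 8.57% of all genes. KAP1 was at 14.6% and Kap1 KD PolII at 37.5% with 500 bp (all genes 18.7% and 22.4%), and KAP1 at 6.25%, H3K27ac at 50.0% and Kap1 KD PolII at 29.2% with 1000 bp (all genes 13.3%, 35.1% and 16.9%). Where 10% of the gene body had to be covered, the shares were 2.08% for KAP1, 8.33% for H3K27ac, 43.8% for H3K4me1, 2.08% for control PolII and 10.4% for Kap1 KD PolII, beside 4.49%, 10.3%, 20.8%, 4.23% and 7.84% of all genes. With the upper part of each list they were 14.6%, 45.8%, 70.8%, 6.25% and 22.9%, beside 13.2%, 28.0%, 39.7%, 9.30% and 19.2%. The position above all genes was therefore turned for KAP1 in the gene body with the wider 2 promoters and with 10% covered, for H3K27ac with 10% covered, and for control PolII with 10% covered and with the upper part of the list. Leaving out regions that touch the promoter window, chosen after seeing the data, gave 4.17% for KAP1, 10.4% for control PolII and 22.9% for Kap1 KD PolII (all genes 11.2%, 6.47% and 13.4%), which again put KAP1 below all genes, and leaving out members with a missing control number was likewise chosen later. Counting Psmc3ip as a member, or leaving out members with another gene start within 1000 bp, moved no share out of its interval. No paired analysis was possible because each group holds 1 library and no result comes from a test. For the same reason no library could be left out, and the unknown depth of the PolII libraries limits every comparison of Kap1 KD with control.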

Other observations

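Symbols that begin like those of the proteasome genes but fall outside the rule were also looked up. Psmc3ip, which encodes a protein of meiotic recombination named for binding Psmc3, had PolII over its promoter in both lists and no KAP1 or histone mark. The pseudogene Psme2b-ps had H3K9me3 over its annotated 5′ end and no region of another list.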
